A study of Mus musculus with 6 samples.

Results

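Voltage-gated calcium channels are membrane pores that open when a cell depolarises and let calcium in. Here 9 genes that encode their subunits were followed in fetal mouse heart, chosen by gene symbol from a table of 31529 genes. They are the L-type pore genes Cacna1c and Cacna1d, the T-type pore genes Cacna1g and Cacna1h, the beta subunit genes Cacnb1, Cacnb2 and Cacnb3, and the alpha2delta subunit genes Cacna2d1 and Cacna2d2. All 9 were found in the table, 1 row each. Hearts of the outbred ICR mouse were compared at E18.5 and E16.5 (days of embryonic development), with 3 libraries of polyadenylated RNA at each stage. All animals were labelled WT, and no treatment is given. The sources used here do not say whether a library holds 1 heart or several, which litter it came from, or whether the whole heart was taken.

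In the heart, calcium that enters through L-type channels triggers the release of more calcium from the sarcoplasmic reticulum, which starts contraction. L-type pores assemble with a beta subunit, which brings the channel to the surface and tunes its opening, and with an extracellular alpha2delta subunit, which also raises surface density. T-type pores open at more negative voltages, need neither partner to conduct, and are known for their part in pacemaking and for their presence in fetal ventricular muscle. Both stages fall shortly before birth in the mouse, when the circulation and the workload of the heart are about to change.

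The libraries held 61443414 to 71510191 estimated counts at E18.5 and 67082123 to 77237333 at E16.5. Genes of the mitochondrial chromosome took 25.2% to 33.5% of the counts at E18.5 and 19.9% to 41.4% at E16.5, with the lowest share in E16.5 replicate 2. Levels in CPM are TMM-normalised counts relative to library size, which puts the libraries on a common scale. On that scale E16.5 replicate 2 was the lowest E16.5 library for 9 of 9 subunits, and for 39% of the 19959 genes tested. On the other scale used below this differed, as given at the end. The level of Xist, an RNA made from the silenced X in females, was 1189 CPM in E18.5 replicate 3, 965 and 1353 CPM in E16.5 replicates 2 and 3, and at most 14.6 CPM in the other 3 libraries, so both stages hold libraries with and without it. Cardiomyocyte markers were abundant, with a summed level of 38034 to 44668 CPM at E18.5 and 33595 to 41071 CPM at E16.5. In RNA from bulk tissue, fewer cells of a type and less RNA per cell cannot be told apart.

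None of the 9 subunits passed the test for a difference between the stages when p-values were adjusted over all genes (edgeR quasi-likelihood test with Benjamini-Hochberg adjustment, adjusted p under 0.05). Over the whole table, 30 of 19959 genes passed, which is 0.15%, with 0.0952% higher and 0.0551% lower at E18.5. Among the 6600 genes that, like every subunit, had at least 980 counts in every library, 0.0909% passed. The subunit with the largest difference was Cacna2d2, an alpha2delta gene, which stood at 46.8% of its E16.5 mean at E18.5 (log2 change -1.10, 95% interval -1.52 to -0.67). The T-type pore gene Cacna1h (-0.71, -1.24 to -0.19) and the L-type pore gene Cacna1d (-0.53, -0.83 to -0.22) came next. These 3 were the subunits with an unadjusted p under 0.05, and all 3 were lower at E18.5. Among all genes tested, 4.7% had an unadjusted p under 0.05 in the lower direction, and 4.89% of those 6600 genes. The other 6 subunits had log2 changes between -0.15 and 0.16, and the median over the 9 was -0.05. All 9 passed the filter on low counts. Their counts ran from 980 to 22790 per library, so that counting alone adds an error of at most 3.19%, and the spread between libraries sets the precision.

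**Figure D1:**
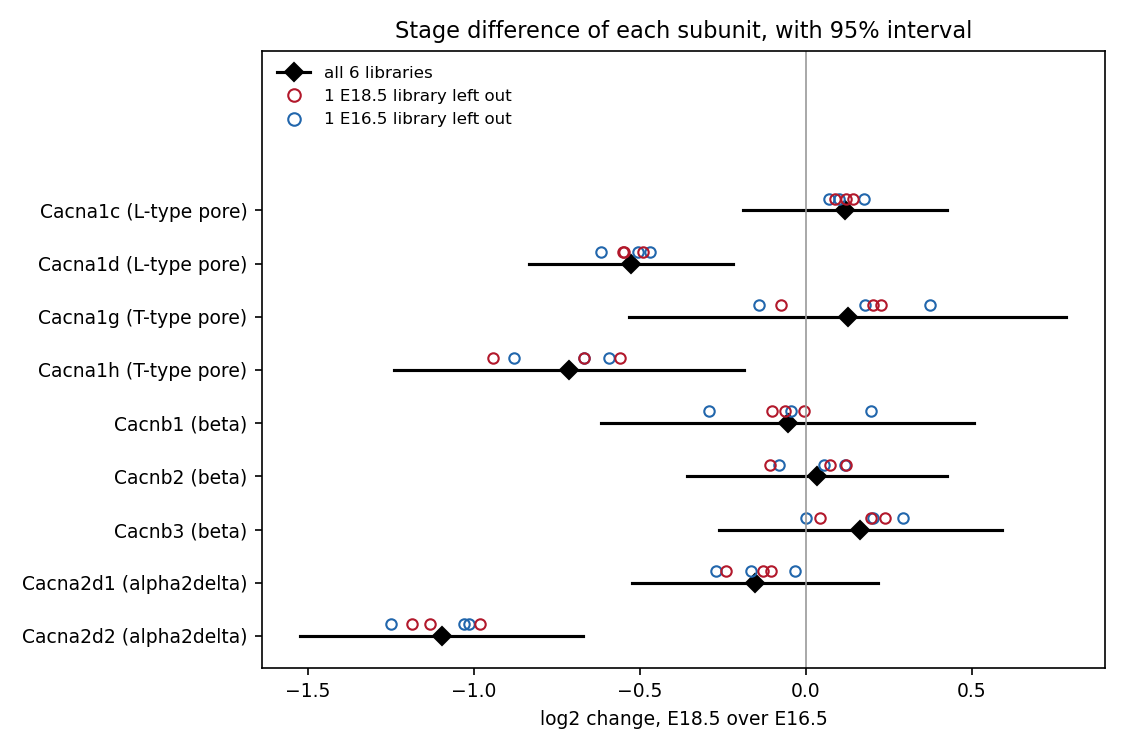
The log2 change of each subunit (E18.5 over E16.5, horizontal axis) is shown as a black diamond with its 95% interval, and open circles give the estimate with 1 library left out, red for an E18.5 library and blue for an E16.5 library. The intervals of Cacna1d, Cacna1h and Cacna2d2 lie below 0, and the 6 other intervals cross it.

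Levels of different genes were set side by side per length, as FPKM (fragments per kilobase of transcript, scaled to library size). At E18.5 the order was Cacna1g (18.8 ± 2.18 FPKM, SD, n = 3), Cacna1c (14.2 ± 1.88), Cacna1h (13.5 ± 2.19), Cacnb3 (13.3 ± 0.512), Cacna2d1 (6.93 ± 1.17), Cacnb1 (3.81 ± 0.462), Cacnb2 (2.48 ± 0.609), Cacna2d2 (2.47 ± 0.380) and Cacna1d (1.64 ± 0.156). At E16.5 Cacna1h stood first (20.4 ± 0.617 FPKM), followed by Cacna1g (15.5 ± 3.00), Cacna1c (12.2 ± 2.15), Cacnb3 (10.9 ± 0.279), Cacna2d1 (7.05 ± 0.375), Cacna2d2 (4.85 ± 0.361), Cacnb1 (3.53 ± 0.535), Cacnb2 (2.22 ± 0.250) and Cacna1d (2.18 ± 0.212). Between neighbours in that order, the library values overlapped for Cacna1c with Cacna1h, Cacna1h with Cacnb3, and Cacnb2 with Cacna2d2 at E18.5. At E16.5 they overlapped for Cacna1g with Cacna1c, Cacna1c with Cacnb3, and Cacnb2 with Cacna1d. Neighbours at the other ranks did not overlap. The median FPKM over the genes tested was 1.89, and Cacna1g had a mean FPKM above that of 91.2% of them, whereas Cacna1d lay near the middle, above 50.2%.

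**Figure D2:**
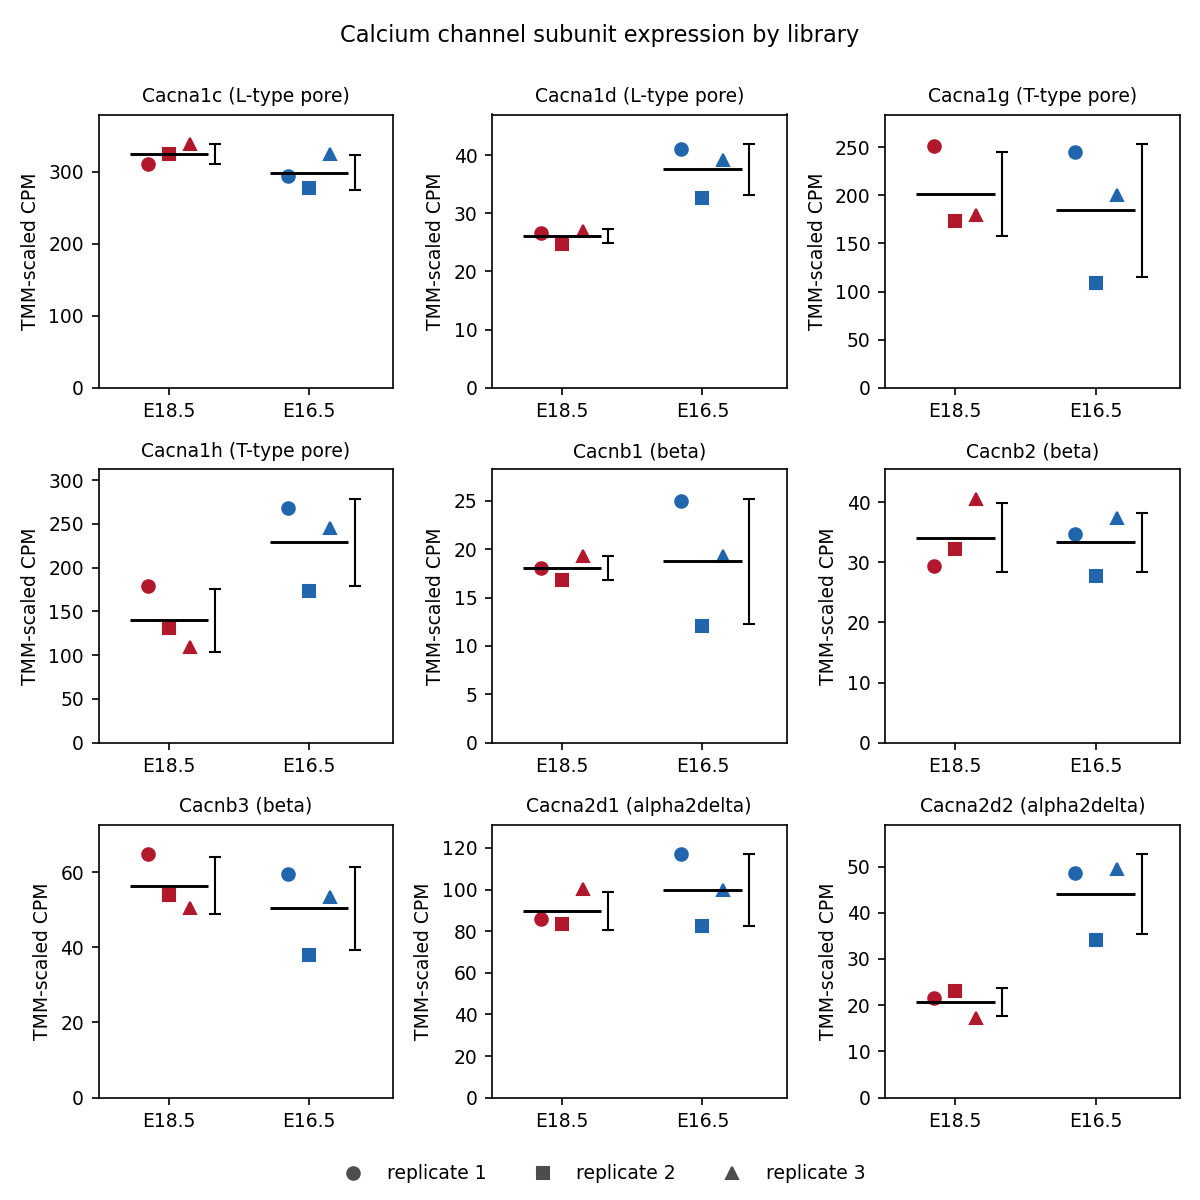
TMM-scaled CPM (vertical axes, from 0) of the 9 subunits in each library, E18.5 in red and E16.5 in blue, with a bar at the stage mean and an error bar of 1 SD (n = 3). The stages are separate for Cacna1d and Cacna2d2, and E16.5 replicate 2 (square) is the lowest E16.5 library in every panel.

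Cacna1c (ENSMUSG00000051331, GRCm38 chromosome 6, 118587240 to 119196418, minus strand) encodes the pore of the main L-type channel of ventricular muscle. It was at 310.4, 324 and 339 CPM in E18.5 replicates 1, 2 and 3, and at 295, 277 and 325 CPM in E16.5 replicates 1, 2 and 3. The stages overlapped, since E16.5 replicate 3 lay above E18.5 replicates 1 and 2. The log2 change was 0.12 ± 0.13 (SE), with an interval of -0.19 to 0.43 and an adjusted p of 0.791 (edgeR). Its coefficient of variation over libraries was 4.39% at E18.5 and 8.09% at E16.5.

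The gene-level value of Cacna1c sums over several start sites, and Cacna1c is known for alternative first exons that differ between cardiac muscle and other tissues, so a shift between them would not be visible in these counts. The windows at the 2 most upstream of its 3 annotated starts are shown because they differ in base composition. They run from 250 bases before to 50 bases after the start, as RefSeq gives them on GRCm38.p6, read 5′ to 3′ along the minus strand, at chr6:119196360-119196659 and chr6:119108446-119108745. Capitals mark GC boxes (GGGCGG on either strand, overlapping matches included), the letters bound by Sp and Klf factors.
Cacna1c, upstream start: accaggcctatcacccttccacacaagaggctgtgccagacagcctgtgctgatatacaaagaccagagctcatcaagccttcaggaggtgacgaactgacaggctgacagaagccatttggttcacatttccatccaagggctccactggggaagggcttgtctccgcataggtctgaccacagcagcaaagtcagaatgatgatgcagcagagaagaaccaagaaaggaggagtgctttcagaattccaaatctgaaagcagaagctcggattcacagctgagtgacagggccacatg
Cacna1c, next start: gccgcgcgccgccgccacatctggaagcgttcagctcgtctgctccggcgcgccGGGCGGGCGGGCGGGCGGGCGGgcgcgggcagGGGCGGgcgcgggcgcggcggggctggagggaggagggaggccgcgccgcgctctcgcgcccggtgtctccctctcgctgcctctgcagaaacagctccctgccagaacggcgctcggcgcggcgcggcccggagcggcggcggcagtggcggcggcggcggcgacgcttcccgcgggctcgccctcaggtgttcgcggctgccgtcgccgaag
The upstream window held 3 CpG dinucleotides and 0 GC boxes, and the next one 57 CpG and 6 GC boxes. The median over all 32851 windows in the table was 7 CpG, and 35.7% of them held a GC box.

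Cacna1d (ENSMUSG00000015968, chromosome 14, 30039939 to 30491455, minus strand) encodes the other L-type pore among the subunits followed, known from atrial and pacemaker cells. It was at 26.5, 24.8 and 26.9 CPM in E18.5 replicates 1, 2 and 3, and at 41.0, 32.6 and 39.1 CPM in E16.5 replicates 1, 2 and 3. Every E18.5 library lay below every E16.5 library, which held for 8.02% of all genes tested in that direction, and for 8.45% in the other. The mean was 26.1 ± 1.14 CPM at E18.5 and 37.6 ± 4.39 CPM at E16.5 (SD, n = 3 each), a log2 change of -0.53 ± 0.13 (SE) with an unadjusted edgeR p of 0.0041 and an adjusted p of 0.263. Without E16.5 replicate 2 the adjusted p was 0.0454, where 1.78% of all genes passed. DESeq2 gave 0.0382, where 2.05% passed. Over all alternatives with a test the adjusted p ran from 0.0382 to 0.831. Libraries were also split by whether mitochondrial genes took more than 30% of counts. Above that share, 1 E18.5 library stood against 2 of E16.5, and the log2 difference was -0.58. Among the rest, 2 E18.5 libraries stood against E16.5 replicate 2 alone, and it was -0.33. Neither was tested, and the same split is used for the subunits below. Of the genes whose span overlaps Cacna1d, Dcp1a on the other strand held 103% of its counts but shares no exon with it in GENCODE M21, and Chdh shares 589 exon bases but held 1.86% of its counts. The library kit marked strand, but whether the counting used it is not stated.

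Within the L-type pair, Cacna1c made up most of the transcript, and Cacna1d a smaller part at E18.5 than at E16.5. Its share of their summed FPKM was 10.9%, 9.91% and 10.3% in E18.5 replicates 1, 2 and 3, and 16.7%, 14.5% and 14.8% in E16.5 replicates 1, 2 and 3. Such a share is taken within a library and does not depend on how libraries are scaled. The E18.5 values all lay below the E16.5 values. How often shares of other gene pairs are separate was not counted, here or for the pairs below. The sum itself overlapped between the stages, at 15.9 ± 2.02 FPKM at E18.5 and 14.4 ± 2.36 FPKM at E16.5.

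Cacna1h (ENSMUSG00000024112, chromosome 17, 25374285 to 25433783, minus strand) encodes a T-type pore known from fetal and hypertrophied ventricular muscle. It was at 179, 131 and 109 CPM in E18.5 replicates 1, 2 and 3, and at 268, 173 and 246 CPM in E16.5 replicates 1, 2 and 3. The stages overlapped at a single pair, E18.5 replicate 1 lying just above E16.5 replicate 2. On the FPKM scale, which is not scaled by TMM, they did not overlap, with 15.7, 13.4 and 11.3 FPKM at E18.5 and 20.2, 19.9 and 21.1 FPKM at E16.5. The share of all genes tested that are separate in FPKM was not counted. The log2 change in CPM was -0.71 ± 0.23 (SE), with an unadjusted edgeR p of 0.0139 and an adjusted p of 0.382. It was -0.51 among libraries over a 30% mitochondrial share and -0.54 among the rest, with no test.

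Cacna1g (ENSMUSG00000020866, chromosome 11, 94408391 to 94474198, minus strand) encodes the other T-type pore of the heart, known from the sinoatrial and atrioventricular nodes. It was at 252, 173 and 179.8 CPM in E18.5 replicates 1, 2 and 3, and at 245, 109 and 199.9 CPM in E16.5 replicates 1, 2 and 3. The stages overlapped, although E16.5 replicate 2 lay below every E18.5 library, and Cacna1g was the most variable subunit at E16.5, with a coefficient of variation of 37.4%. Its log2 change was 0.13 ± 0.29 (SE), with an interval of -0.53 to 0.79 and an adjusted p of 0.903 (edgeR). The sign turned without E16.5 replicate 2 (-0.14) and without E18.5 replicate 1 (-0.07). With the mitochondrial share of each library as a term it was 0.39 ± 0.09 (SE, unadjusted p = 0.00187, adjusted p = 0.0878, edgeR), and over all alternatives with a test the adjusted p ran from 0.0878 to 0.987. The log2 difference was 0.19 among libraries over a 30% mitochondrial share and 0.69 among the rest, with no test.

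The T-type pair stood in a different order at the 2 stages. Cacna1h held 42.5%, 44.0% and 38.6% of their summed FPKM in E18.5 replicates 1, 2 and 3, and 53.2%, 62.3% and 56.1% in E16.5 replicates 1, 2 and 3. Cacna1h was thus the lesser of the pair in every E18.5 library and the greater in every E16.5 library, with a ratio of Cacna1h to Cacna1g of 0.718 ± 0.0814 at E18.5 and 1.35 ± 0.265 at E16.5 (SD, n = 3 each). The same order held in counts without length scaling, where Cacna1h held 40.8% ± 2.79 of the pair at E18.5 and 56.3% ± 4.65 at E16.5. The T-type sum was 32.2 ± 4.09 FPKM at E18.5 and 35.9 ± 3.38 FPKM at E16.5, and the stages overlapped. Of all 4 pore genes together, the T-type pair made up 73.0%, 65.0% and 62.6% at E18.5 and 76.1%, 65.8% and 72.0% at E16.5, again with overlap. By counts without length scaling the pair made up 48.9% ± 6.35 at E18.5 and 54.4% ± 6.38 at E16.5. By library this was 56.1%, 46.6% and 44.1% at E18.5 and 60.4%, 47.7% and 55.1% at E16.5, with overlap. Whether the pair held most of the transcript of these 4 genes thus depended, in libraries of both stages, on the lengths the FPKM assumed. The sum of the 4 pore genes was 48.1 ± 2.11 FPKM at E18.5 and 50.3 ± 1.86 FPKM at E16.5.

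**Figure D3:**
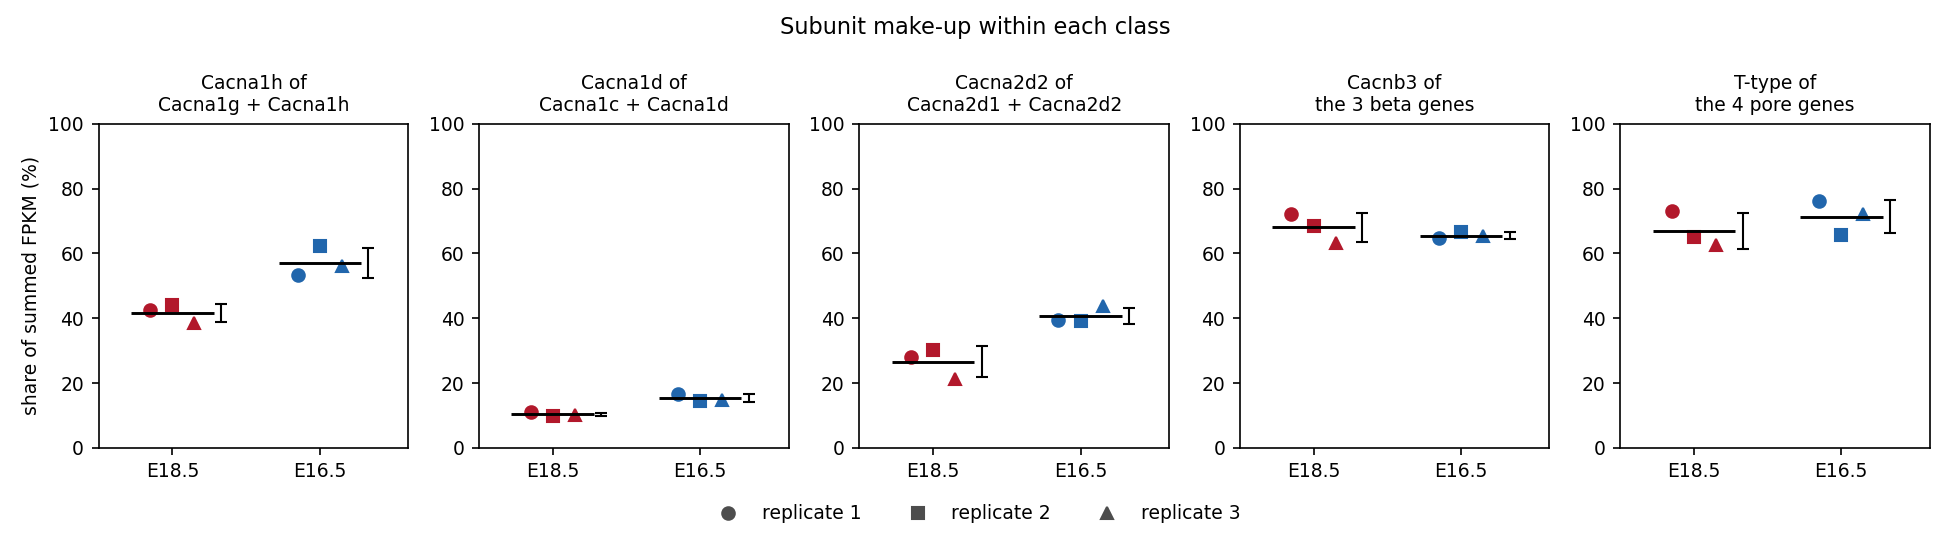
Share of summed FPKM (vertical axes, 0 to 100%) that 1 gene or pair holds within its class, by library, E18.5 in red and E16.5 in blue, with the mean and 1 SD (n = 3). The stages are separate for Cacna1h within the T-type pair, Cacna1d within the L-type pair and Cacna2d2 within the alpha2delta pair. They overlap for Cacnb3 within the beta genes and for the T-type pair within the 4 pore genes followed. How often shares of other genes are separate was not counted.

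No beta subunit passed the test, and their make-up overlapped between the stages. Their summed FPKM did not overlap, at 19.1, 19.5 and 20.2 in E18.5 replicates 1, 2 and 3, and at 16.9, 16.0 and 17.1 in E16.5 replicates 1, 2 and 3. In TMM-scaled CPM the sums overlapped, with 103 to 112 CPM at E18.5 and 77.9 to 119 CPM at E16.5. Cacnb3 (ENSMUSG00000003352, chromosome 15, 98630840 to 98644529, plus strand), a beta subunit known from smooth muscle and neurons, was the most abundant per length, with 68.1% ± 4.51 of the summed beta FPKM at E18.5 and 65.5% ± 1.01 at E16.5. It was at 64.9, 53.8 and 50.5 CPM in E18.5 replicates 1, 2 and 3, and at 59.4, 38.0 and 53.5 CPM in E16.5 replicates 1, 2 and 3. These ranges overlapped and the log2 change was 0.16 ± 0.19 (SE, adjusted p = 0.793, edgeR). In FPKM, which is not scaled by TMM, the stages were separate, with 13.8, 13.4 and 12.8 FPKM at E18.5 and 10.9, 10.6 and 11.2 FPKM at E16.5. How many of all genes tested are separate in FPKM was not counted. The limma fit on log2(FPKM + 1) did not call Cacnb3 (log2 change 0.27, adjusted p = 0.795).

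Cacnb2 (ENSMUSG00000057914, chromosome 2, 14603088 to 14987908, plus strand) encodes the beta subunit best known as partner of the cardiac L-type pore. It was at 29.4, 32.3 and 40.5 CPM in E18.5 replicates 1, 2 and 3, and at 34.7, 27.8 and 37.4 CPM in E16.5 replicates 1, 2 and 3. The stages overlapped, with a log2 change of 0.03 ± 0.17 (SE, interval -0.36 to 0.43, adjusted p = 0.961, edgeR). Per length it was the least abundant beta gene, with 12.6% ± 2.73 of the summed beta FPKM at E18.5 and 13.3% ± 1.71 at E16.5. By counts without length scaling its share was 31.4% ± 5.28 at E18.5 and 32.9% ± 3.39 at E16.5, above that of Cacnb1, so the order of those genes depends on the length the authors' FPKM assumed.

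Cacnb1 (ENSMUSG00000020882, chromosome 11, 98001508 to 98023034, minus strand) encodes the beta subunit known from the skeletal muscle channel. It was at 18.1, 16.8 and 19.3 CPM in E18.5 replicates 1, 2 and 3, and at 24.9, 12.1 and 19.3 CPM in E16.5 replicates 1, 2 and 3. The E18.5 values lay inside the wider E16.5 range, where the coefficient of variation was 34.4%, against 6.66% at E18.5. The log2 change was -0.05 ± 0.25 (SE, interval -0.62 to 0.51, adjusted p = 0.956, edgeR), and its sign depended on the scaling, with 0.087 on the log2(FPKM + 1) scale.

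Among the alpha2delta subunits, Cacna2d2 (ENSMUSG00000010066, chromosome 9, 107399612 to 107529343, plus strand), best known from cerebellar Purkinje cells and as the gene of the ducky mouse, differed most. It was at 21.5, 23.2 and 17.3 CPM in E18.5 replicates 1, 2 and 3, and at 48.7, 34.2 and 49.5 CPM in E16.5 replicates 1, 2 and 3. No E18.5 library reached an E16.5 library, and the nearest pair was E18.5 replicate 2 and E16.5 replicate 2. The mean was 20.6 ± 3.03 CPM at E18.5 and 44.1 ± 8.63 CPM at E16.5 (SD, n = 3 each), a log2 change of -1.10 ± 0.19 (SE). Its unadjusted edgeR p of 3.07e-04 ranked 53 of 19959 genes, and the adjusted p was 0.116, so it did not pass. DESeq2 gave an adjusted p of 5.7e-05, edgeR without E16.5 replicate 2 gave 0.0187, and edgeR with the mitochondrial share of each library as a term gave 0.0197, where 0.922% of all genes passed. Over all alternatives with a test it ran from 5.7e-05 to 0.444. In the 3 libraries over a 30% mitochondrial share (E18.5 replicate 1 against E16.5 replicates 1 and 3) the log2 difference was -1.17. Among the other 3 (E18.5 replicates 2 and 3 against E16.5 replicate 2) it was -0.76.

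Cacna2d1 (ENSMUSG00000040118, chromosome 5, 15934691 to 16374511, plus strand) encodes an alpha2delta subunit that binds gabapentin and is known as the main one in heart and skeletal muscle. It was at 85.6, 83.3 and 100.2 CPM in E18.5 replicates 1, 2 and 3, and at 117, 82.6 and 99.7 CPM in E16.5 replicates 1, 2 and 3. The stages overlapped, with a log2 change of -0.15 ± 0.16 (SE, interval -0.52 to 0.22, adjusted p = 0.78, edgeR). Cacna2d2 held 28.1%, 30.3% and 21.2% of the summed alpha2delta FPKM in E18.5 replicates 1, 2 and 3, and 39.3%, 39.2% and 43.7% in E16.5 replicates 1, 2 and 3. All E18.5 shares lay below all E16.5 shares. Cacna2d1 stood 2.86 ± 0.756 times above Cacna2d2 in FPKM at E18.5 and 1.46 ± 0.148 times above it at E16.5. The summed alpha2delta FPKM was 8.20, 9.61 and 10.4 in E18.5 replicates 1, 2 and 3, and 11.5, 12.3 and 12.0 in E16.5 replicates 1, 2 and 3, without overlap. In TMM-scaled CPM the sums overlapped, with 107 to 118 CPM at E18.5 and 117 to 166 CPM at E16.5.

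The start windows of the alpha2delta pair are printed because its members differed most in their stage values. They are RefSeq windows of the same kind on GRCm38.p6, plus strand, at chr9:107399630-107399929 for Cacna2d2 and chr5:15934441-15934740 for Cacna2d1, with GC boxes in capitals (GGGCGG or its complement, overlapping matches included).
Cacna2d2: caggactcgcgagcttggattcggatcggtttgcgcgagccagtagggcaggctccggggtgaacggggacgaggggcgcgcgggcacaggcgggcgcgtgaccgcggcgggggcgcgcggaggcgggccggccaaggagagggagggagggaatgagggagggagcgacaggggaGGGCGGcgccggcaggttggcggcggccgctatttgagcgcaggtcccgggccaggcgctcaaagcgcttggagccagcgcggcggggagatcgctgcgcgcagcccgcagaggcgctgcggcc
Cacna2d1: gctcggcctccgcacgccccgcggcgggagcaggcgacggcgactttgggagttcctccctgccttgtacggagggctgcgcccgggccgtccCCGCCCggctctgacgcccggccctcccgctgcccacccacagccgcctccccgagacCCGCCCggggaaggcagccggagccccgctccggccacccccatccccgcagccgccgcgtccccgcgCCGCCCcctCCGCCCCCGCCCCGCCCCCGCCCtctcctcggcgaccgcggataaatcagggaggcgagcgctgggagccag
Both windows were rich in CpG, with 43 in Cacna2d2 and 42 in Cacna2d1, but Cacna2d2 held 1 GC box and Cacna2d1 held 7. Both strands of the 4 printed windows were also searched for TATAAA (in 13.6% of all windows), AGATAA (11.2%), the half-sites AGGTCA (16.3%) and AGAACA (19.0%), and TGACG (20.8%). TGACG was found once in Cacna2d1 and once in the upstream window of Cacna1c, and the others in none of the 4. Such matches are letters in a window and say nothing of binding. Windows were listed for 7 of the 9 subunits, and some of those not printed did hold these letters. AGAACA was found 2 times at the third Cacna1c start, and once each in a Cacna1d and a Cacnb2 window. TATAAA was found 3 times in that Cacna1d window, and TGACG once in that Cacnb2 window.

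Of 17 further pore, beta, alpha2delta and gamma genes listed, 16 were in the table and 13 passed the filter on low counts, and 0 of the 13 passed, with a median log2 change of 0.07 against -0.0019 over all genes tested. The P/Q-type pore gene Cacna1a, known from nerve terminals, was at 14.9 ± 0.461 CPM at E18.5 and 19.2 ± 5.37 CPM at E16.5 (log2 change -0.36, adjusted p = 0.623, edgeR). Cacng6, a gamma subunit gene, was at 5.84, 7.01 and 6.25 CPM at E18.5 and at 10.5, 8.21 and 9.93 CPM at E16.5, without overlap, and was the 1 gene of this list with an unadjusted p under 0.05 (log2 change -0.59, adjusted p = 0.362, edgeR). Per length, Cacng6 and Cacng7 were the highest of the list and reached the range of the less abundant of the 9 subunits, with Cacng6 at 3.08 FPKM at E18.5 and 4.26 FPKM at E16.5, and Cacng7 at 2.61 FPKM at E18.5 and 2.01 FPKM at E16.5. Cacna1a was at 1.16 FPKM at E18.5 and 1.34 FPKM at E16.5. Cacng7, another gamma subunit gene, had a log2 change of 0.26, and the R-type pore gene Cacna1e one of -0.46. The rest had CPM means of at most 2.38 at either stage. They were Cacnb4 (log2 change 0.40), Cacng4 (-0.45), Cacna2d3 (0.54), Cacna1b (0.52), Cacna1s (-0.94), Cacng3 (0.41), Cacng8 (0.07), Cacna1i (-0.83) and Cacng2 (0.09).

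Of 31 genes listed as regulators of L-type channels, 1 changed and it was higher at E18.5, with a median log2 change of 0.11 over the list. Among all genes tested, 0.0952% were called higher. The gene called was Ahnak2, a large scaffold protein gene related to Ahnak, at 11.4, 11.2 and 8.46 CPM in E18.5 replicates 1, 2 and 3, and at 3.86, 3.70 and 2.78 CPM in E16.5 replicates 1, 2 and 3 (log2 change 1.59 ± 0.22 SE, adjusted p = 0.0483, edgeR). That adjusted p lay just under the threshold of 0.05. Rem2, of the GTPase family that inhibits L-type channels through the beta subunit, had a log2 change of -1.37 at a low level of 0.573 CPM at E18.5 and 1.48 CPM at E16.5. Camk2a, a subunit gene of calcium and calmodulin-dependent kinase II, had one of -0.58. Neither passed (adjusted p = 0.297 for Rem2 and 0.363 for Camk2a, edgeR).

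Genes of calcium release and removal stood mostly above 0. In 10 of 14 the estimate was higher at E18.5, with a median log2 change of 0.18, 4 had an unadjusted p under 0.05 in the higher direction, against 4.83% of all genes, and 0 changed after adjustment. The 3 with the smallest p were sarcolipin Sln (log2 change 1.16), the ryanodine receptor Ryr2 (0.53) and the calcium pump Atp2a2 (0.77), with adjusted p of 0.129, 0.285 and 0.294 (edgeR). Sln was also listed as an atrial marker and Ryr2 as a cardiomyocyte marker, so the lists share genes. Of 21 genes of calcineurin signalling and calcium-responsive transcription, 9 estimates were higher and 12 lower, 0 changed, and the smallest p belonged to the histone deacetylase gene Hdac5 (-0.62), the cardiac homeobox gene Nkx2-5 (-0.40) and the calcineurin regulator Rcan2 (0.35).

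**Figure D4:**
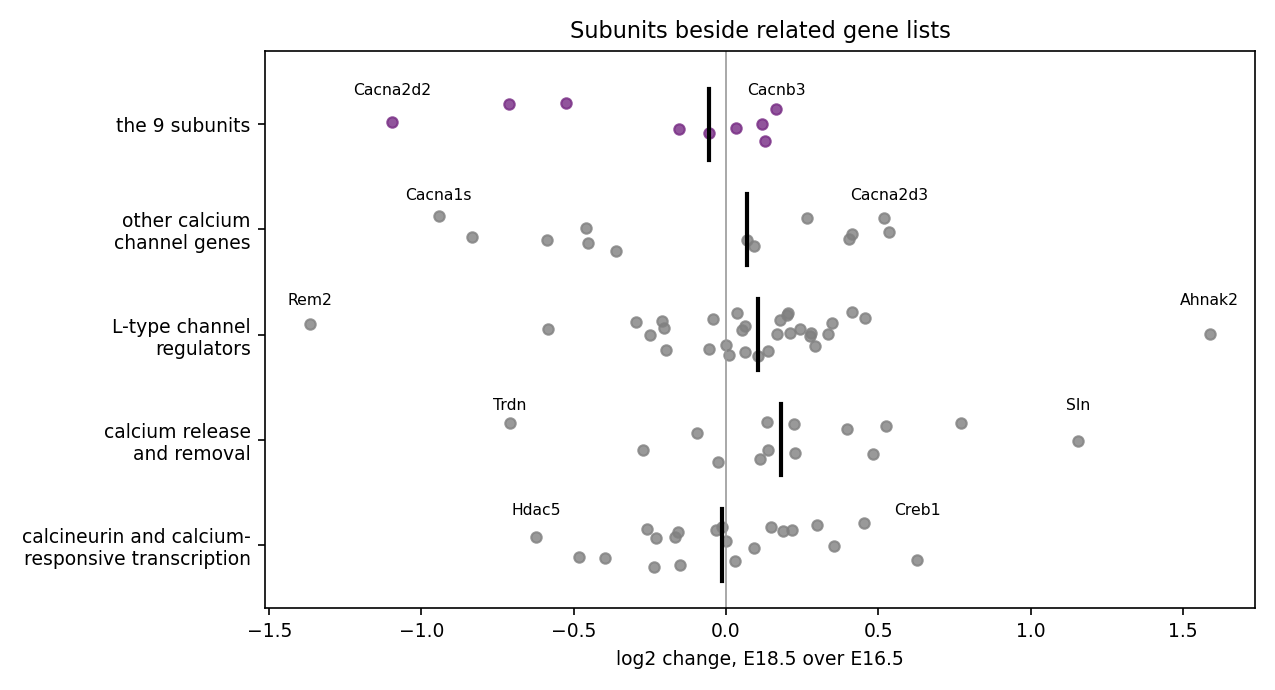
Log2 change (E18.5 over E16.5, horizontal axis) of each tested gene in the 9 subunits (purple) and in 4 related lists (grey), with a black bar at the median and the lowest and highest gene of each named. The medians run from -0.05 for the subunits to 0.18 for calcium release and removal, and vertical scatter within a row only separates points.

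Summed markers of some cell types that use these channels lay apart between the stages, and others overlapped. For the counts below, 4.83% of all genes tested had an unadjusted p under 0.05 in the higher direction and 4.7% in the lower. After adjustment, 0.15% of all genes passed in either direction. Summed atrial markers were at 3692 to 4301 CPM at E18.5 and at 1879 to 2835 CPM at E16.5, with 4 of 9 at an unadjusted p under 0.05 in the higher direction. Smooth muscle and pericyte markers summed to 1481 to 1600.4 CPM at E18.5 and 1278 to 1372 CPM at E16.5, with 4 of 12 at an unadjusted p under 0.05, all higher. Pacemaker and conduction markers overlapped, at 209 to 243 CPM at E18.5 and 225 to 262 CPM at E16.5, with 2 of 12 at an unadjusted p under 0.05, both lower. Over these 12 markers, 6 estimates were higher and 6 lower at E18.5, with a median log2 change of -0.02. The smallest p among them belonged to Cpne5 (log2 change -0.64) and the pacemaker channel gene Hcn4 (-0.62), with adjusted p of 0.267 and 0.485 (edgeR). Neuron and Schwann cell markers were low and overlapped, at 35.5 to 49.0 CPM at E18.5 and 35.8 to 45.5 CPM at E16.5. Of the 11 tested, 3 had an unadjusted p under 0.05, of which 2 were higher at E18.5. Skeletal muscle markers summed to 430.5 to 629 CPM at E18.5 and 252 to 549 CPM at E16.5, most of it the creatine kinase Ckm, while Myog was at 0.709 CPM at E18.5 and 0.871 CPM at E16.5. Fibroblast markers were at 3806 to 4994 CPM at E18.5 and 2261 to 3573 CPM at E16.5 (3 of 8 at an unadjusted p under 0.05, all higher), and epicardial markers at 160.1 to 211 CPM at E18.5 and 99.0 to 112 CPM at E16.5 (5 of 8, all higher), with Krt19 the 1 marker of these lists that changed (log2 change 1.23, adjusted p = 0.0219, edgeR). Endothelial markers (597 to 680.04 CPM at E18.5, 467 to 649 CPM at E16.5) and blood and immune markers (9043 to 21172 CPM at E18.5, 9474 to 23821 CPM at E16.5) overlapped. No listed marker in the table was at 0 in all libraries. The part of these differences in the subunit values was not tested.

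By the root mean square difference of centred log2 CPM over the 6 libraries, among 15623 other genes (predicted and clone-named genes left out), the genes with the profile nearest to Cacna1c were Srebf2 (0.0263), Ubp1 (0.0267) and Evi5l (0.028). Those nearest to Cacna2d2 were Cadm1 (0.113), Rec8 (0.148) and Cfap161 (0.15). Cadm1 was at 6.59, 6.58 and 4.76 CPM in E18.5 replicates 1, 2 and 3, and at 13.3, 8.38 and 12.7 CPM in E16.5 replicates 1, 2 and 3, so that, as for Cacna2d2, E16.5 replicate 2 lay between the E18.5 libraries and the other E16.5 libraries. Cadm1 was picked for its nearness over these same 6 libraries, so that shared position adds nothing beyond the distance. The distances are a description over 6 libraries that share their scaling, with no test.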

How the data were processed

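The table deposited by the authors holds, per the file headers, an estimated count and an FPKM value (fragments per kilobase, scaled to library size) for each gene and library. Per the submitters' processing notes, the tools were StringTie 1.3.4d, HISAT2 2.0.4, cutadapt 1.9 and UMI-tools, and the build mm9, with no roles stated. The sources used here do not say whether counting used strand or UMIs. The deposited counts were whole numbers and were used as they stand. For 99.7% of 11385 genes with over 200 counts in every library, and for 9 of 9 subunits, counts and FPKM gave the same library-to-library ratios, to within 1%, after a common scaling. Gene positions were taken by identifier from GENCODE M21 (GRCm38), and no deposited coordinate is printed.

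Stages were compared over all genes with edgeR 4.0.16 (R 4.3.3): filterByExpr, TMM scaling, quasi-likelihood test with stage as the only term, two-sided, Benjamini-Hochberg adjustment over 19959 genes, threshold 0.05. The script was tested on simulated data. The common biological coefficient of variation was 34.3%. P-values measure the spread between 3 libraries per stage, which the design text calls biological replicates. Alternatives used DESeq2 1.42.0, limma 3.58.1, other scalings and filters, covariates and left-out libraries. Shares and ratios of subunits are descriptions, since an exact test of 3 against 3 libraries cannot go below 0.1. How often shares, sums or ratios of other genes are separate between the stages was not counted. Named genes were the 9 subunits, for the related lists those called and up to 3 with the smallest p, all other channel genes past the filter, and the nearest profiles. The subunits and lists were chosen with earlier results of these data known. Cacna1f and Myod1 were not analysed here.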

Additional observations from a re-analysis of the deposited data

How the results depend on the processing

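Cacna1c, Cacna1d, Cacna1h and Cacna2d2 kept their direction under all 16 alternatives tried, and estimates of the other subunits turned in sign under some. With 1 library left out, log2 changes ran from 0.07 to 0.17 for Cacna1c, -0.62 to -0.47 for Cacna1d, -0.14 to 0.37 for Cacna1g, -0.94 to -0.56 for Cacna1h, -0.29 to 0.20 for Cacnb1, -0.11 to 0.12 for Cacnb2, -0.000159 to 0.29 for Cacnb3, -0.27 to -0.03 for Cacna2d1 and -1.25 to -0.98 for Cacna2d2. Without E16.5 replicate 2, Cacna1d (-0.62) and Cacna2d2 (-1.25) passed, Cacna1g (-0.14), Cacnb2 (-0.08) and Cacnb3 (-0.000159) reversed, and 371 genes were called. Leaving out 1 library gave 8 to 371 calls over all genes and 0 to 2 subunits called. Cacna1g also reversed without E18.5 replicate 1 (-0.07), Cacnb2 without E18.5 replicate 3 (-0.11) and Cacnb1 without E16.5 replicate 1 (0.20).

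DESeq2 called 408 genes, and 2 subunits, Cacna1d (-0.53) and Cacna2d2 (-1.10). The mitochondrial share as a term gave 184 calls and 1 subunit, Cacna2d2 (-0.99), with Cacnb1 at 0.16. Limma on log2(FPKM + 1) called 10 genes and on log2(FPKM + 0.1) 18, with Cacnb1 at 0.087 and 0.11; folds on that scale understate changes of low genes. With the replicate block 43 genes and 0 subunits were called and Cacnb1 stood at 0.0041. The block changed no subunit's call. Whether same-numbered libraries share a litter or a batch is not given. Their deviations from the stage means correlated at 0.236, 0.328 and -0.0759. Of the E18.5 libraries only replicate 2 correlated best with its own number. With 3 libraries per stage, these values cannot decide whether the numbers mark pairs. Split at a 30% mitochondrial share, an alternative chosen after seeing the data, Cacnb2 was at -0.29 above it, and Cacnb1 (0.56) and Cacna2d1 (0.14) were of opposite sign below it. Upper-quartile scaling, leaving out mitochondrial genes and dropping the filter left every subunit's sign and call as they were. In counts without length scaling the share of Cacna1d among L-type pores differed by -3.72 percentage points, against -4.94 in FPKM. The causes were not tested. At 3 libraries per stage the intervals around the 9 log2 changes are the limit on precision, not depth.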

Other observations

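Ratios to the L-type pore gene Cacna1c were also taken for a pair of calcium store genes. Ryr2, the release channel that L-type current opens, was at 0.522, 0.572 and 0.572 of the Cacna1c level in FPKM in E18.5 replicates 1, 2 and 3, and at 0.456, 0.460 and 0.352 of it in E16.5 replicates 1, 2 and 3. Atp2a2, which pumps calcium back into the store, was at 8.19, 8.99 and 7.85 times the Cacna1c level at E18.5, and at 4.36, 7.63 and 4.16 times at E16.5. Neither ratio overlapped between the stages, and neither was tested, since Ryr2 and Atp2a2 were picked after their values were seen. Not all genes of calcium release and removal shared this: Trdn, which anchors the release complex, averaged 14.8 FPKM at E18.5 and 21.7 FPKM at E16.5 (log2 change -0.71), and Pln and Asph had log2 changes of 0.14 and 0.11, against 0.12 for Cacna1c.

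E16.5 replicate 2 was the lowest E16.5 library for 9 of 9 subunits on the CPM scale, and for 4 of 9 in FPKM. Over all genes tested it was lowest for 39% in CPM and 14.4% in FPKM. E16.5 replicate 1 was lowest for 0 of 9 subunits in CPM and 4 of 9 in FPKM. Over all genes tested replicate 1 was lowest for 33.2% in CPM and 61.3% in FPKM. The TMM factor of E16.5 replicate 2 was 1.21, the highest of the 6 libraries, and that of E16.5 replicate 1 was 0.812, the lowest. Shares within a class of subunits are taken within a library and do not carry that factor.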
